A study of Bos taurus with 96 samples.

Results

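Gene expression in the fat of Wagyu x Angus steers was compared with that of Angus steers. The arrays were taken by their breed and depot labels alone, which gave 40 of the 96 arrays of the study, 20 from each breed and 4 from each breed in each of 5 fat depots. The depots were intramuscular fat dissected from the longissimus dorsi muscle (IMF, the marbling fat), rump subcutaneous fat (SC), the fat between muscles (Inter), the fat around the kidney (Kid) and that of the omentum (Omen). Fat arrays of 20 Hereford samples, 4 per depot, entered the fit for depot levels and spread. The labels call all of them pasture fed and give 259 d in a feedlot, which they also enter as the age, and the methods describe grain fed steers of about 26 months that had been on pasture after weaning, with 5 steers per breed. Arrays of longissimus dorsi (LD) muscle, 8 labelled pasture and 4 labelled supplement in each breed, are used in a side comparison alone; by the methods some of these steers were slaughtered earlier, and the labels do not say which.

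RNA of 4 of the 5 steers was chosen for each breed and depot on RNA integrity and purity. The labels do not name the steer behind an array, so the 20 arrays of a breed hold the same few animals several times over, and p-values over the 5 depots are smaller than they should be. Within a depot each array is another steer. The Wagyu x Angus steers are crosses of Wagyu with Angus from few sires, and breed cannot be told apart from the sires used.

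Cattle make most of their new fatty acids in adipose tissue, chiefly from acetate. Stearoyl-CoA desaturase then converts saturated into monounsaturated fatty acids, and these are stored as triacylglycerol in the lipid droplet of the adipocyte. Wagyu is known for abundant marbling and for soft, highly monounsaturated fat, whereas Angus is a British beef breed that also marbles well. Fat tissue further holds blood vessels, nerves, fibroblasts and immune cells, so that a level measured on bulk tissue mixes cell types: fewer cells of a type and less RNA per cell cannot be told apart.

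A level is given as log2 of the background-subtracted signal of a probe minus the 75th percentile of its array, so 0 means as bright as that percentile. A difference is Wagyu x Angus minus Angus on this log2 scale. On the 60 fat arrays 87% to 99.6% of the spots of an array were well above background, none was saturated, and arrays of the same breed and depot correlated at 0.927 to 0.989. The scanner had marked 2647 spots of 1 Wagyu x Angus IMF array and 5528 spots of 1 Angus Omen array as outliers, and these spots were left out. All 10 adipocyte markers were well above background on all 60 arrays.

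Over the 5 depots, 282 of 34227 probes passed an adjusted p of 0.05 (0.824%), 124 of them higher (0.362%) and 158 lower (0.462%) in Wagyu x Angus. Of the 282, 268 had the same sign in all 5 depots, which the choice by the mean over these depots favours (all probes, 14%). Differences were mostly small: the median size among the 282 was 0.496, and 35 exceeded 2-fold. A gene name could be given to 177 of these probes, for 141 of the 10653 named genes on the array (1.32%), with 60 higher (0.563%) and 81 lower (0.76%).

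The split between higher and lower moved with the scaling. Of the probes past the test 44% were higher in Wagyu x Angus, against 55.4% under quantile normalization, 61.5% when each array was centred on its mean, 61% with normexp background correction, and 11% in the authors' log2 table as deposited, in which the median of all probes was -0.16. With the scan day as a block 297 probes passed, and within the 3 scan days alone limma called 0, 0 and 5, with 1629, 2294 and 2659 at an unadjusted p under 0.05. With the slide, which holds 4 arrays, as a block 52 probes passed, 47 of them among the 282. Of the 24 genes with the largest changes CD1B, PI3 and FAM13C passed with that block, and the others did not.

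**Figure D1:**
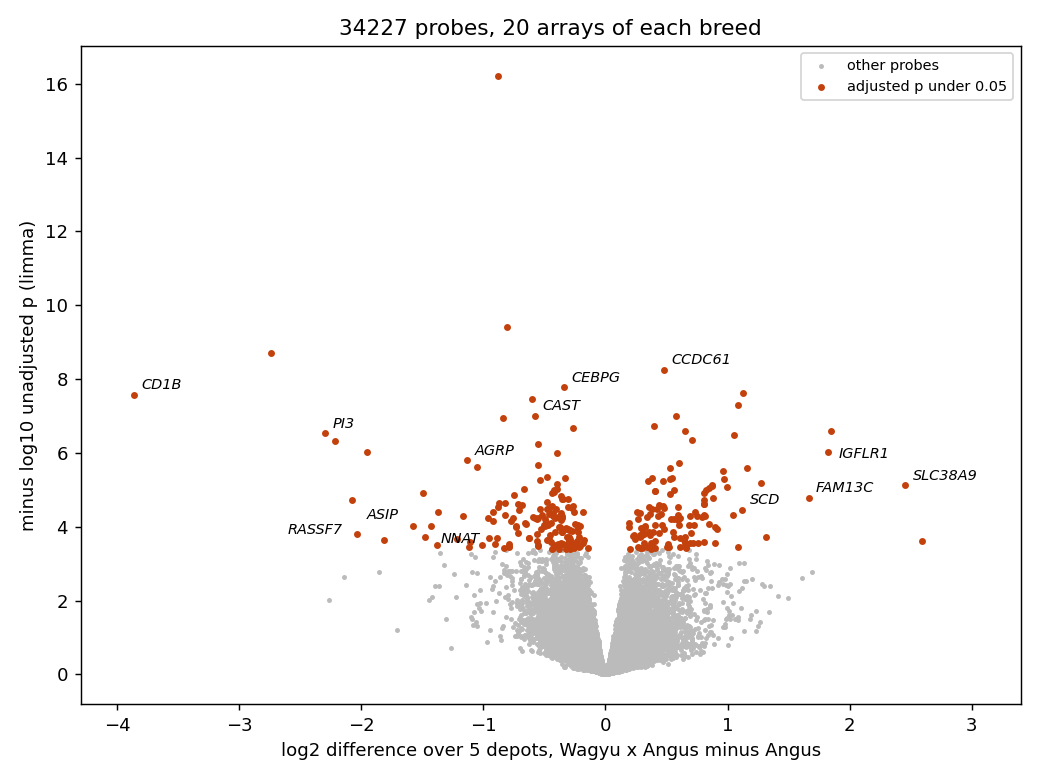
Each point is 1 of 34227 probes, with the log2 difference between 20 Wagyu x Angus and 20 Angus arrays over 5 depots on the horizontal axis and minus log10 of the unadjusted limma p on the vertical axis. The 282 coloured probes passed an adjusted p of 0.05; the lowest difference of a named gene, -3.86, was that of CD1B, and the point at the top has no gene name.

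Among the genes of lipid metabolism the clearest difference was that of SCD (gene ID 280924), which encodes stearoyl-CoA desaturase, the enzyme that puts the double bond into stearic and palmitic acid. SCD levels in IMF were 2.35, 2.94, 2.95 and 4.18 on the Angus arrays and 3.75, 3.95, 4.77 and 4.82 on the Wagyu x Angus arrays. In Kid they were 3.88, 4.13, 4.18 and 5.02 in Angus and 5.48, 5.59, 5.65 and 6.32 in Wagyu x Angus. The breeds were fully apart in Kid, and in IMF only the highest Angus array reached into the Wagyu x Angus range.

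SCD levels in SC were 4.18, 4.84, 6.65 and 6.81 in Angus against 6.16, 6.70, 7.04 and 7.58 in Wagyu x Angus, and in Inter 3.61, 3.70, 5.28 and 5.79 against 5.13, 5.26, 6.12 and 6.39. In Omen they were 3.54, 5.11, 5.34 and 5.67 against 4.61, 5.22, 5.66 and 6.37. The breeds overlapped in these 3 depots. Over the 20 arrays of each breed SCD was 4.51 ± 1.21 (SD) in Angus and 5.63 ± 0.99 in Wagyu x Angus, a difference of 1.12 (SE 0.25, 2.18-fold higher, adjusted p = 0.013). All 7 SCD probes were higher, by 0.57 to 1.12, and 3 of them passed the test. The Hereford minus Angus difference, which uses the same Angus arrays, was 0.10 (adjusted p = 0.945). The difference of SCD over 5 depots was 0.98 with the slide as a block (adjusted p = 0.184) and 0.97 in the table as deposited (adjusted p = 0.0673), and without IMF, Inter or Kid it was 1.10, 1.12 and 1.04, each no longer past the threshold (adjusted p = 0.0785, 0.0568 and 0.129).

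SCD was the only 1 of 19 genes of fatty acid synthesis and desaturation on the array that passed, beside 1.32% of all named genes. At an unadjusted p under 0.05, 8 of the 19 were higher and 0 lower (42.1%, against 17.8% of all genes). In this and later list shares the probe with the smallest p stood for a gene, which favours genes with several probes. This list, like the others, was chosen with earlier results of these data known. The median difference of the list was 0.37, beside -0.03 over all genes. With the slide as a block it was 0.15 (all genes, -0.04), and 0 of the 19 genes passed. In the table as deposited it was 0.23 (all genes, -0.17). By depot the list's median was 0.63 in IMF, 0.17 in SC, 0.37 in Inter, 0.68 in Kid and -0.08 in Omen.

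The other genes of this list did not pass the test. ACACA, acetyl-CoA carboxylase, the rate-limiting step of fatty acid synthesis, differed by 0.96 (SE 0.31, adjusted p = 0.145), with 2.20 in Kid and 0.02 in Omen. FASN, fatty acid synthase, differed by 0.35 (SE 0.25, adjusted p = 0.61). The elongases ELOVL5 and ELOVL6 differed by 0.68 and 0.54, malic enzyme ME1, which supplies NADPH, by 0.67, and acetyl-CoA synthetase ACSS2, which activates acetate, by 0.58, with adjusted p-values between 0.088 and 0.379.

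Cholesterol synthesis showed 20 of 21 genes above 0 (all genes, 4666 of 10653), with a median of 0.23 (all genes, -0.03). The median was 0.13 with the slide as a block (all genes, -0.04) and 0.10 in the table as deposited (all genes, -0.17). MVK, mevalonate kinase, passed with 0.28 (SE 0.07, adjusted p = 0.0325), and 11 of the 21 had an unadjusted p under 0.05, all of them higher (52.4%, against 17.8% of all genes). LSS, lanosterol synthase, had the highest value, 0.52 (adjusted p = 0.0556). MVK no longer passed with arrays centred on their means, with normexp, with either form of the authors' table and without each of 8 single arrays, and with the slide as a block it read 0.21 (adjusted p = 0.346).

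The rest of the adipocyte's lipid handling did not pass the test. SREBF1 (-0.02), the transcription factor of lipogenesis, PPARG (0.17) and CEBPA (0.24), the factors of adipogenesis, LPL (0.16), which frees fatty acids from lipoproteins, CD36 (0.07) and FABP4 (0.15), which take up and carry them, DGAT2 (0.17) and AGPAT2 (0.13), which build triacylglycerol, PLIN1 (0.17), the lipid droplet coat, and the lipolysis genes LIPE (0.21), PNPLA2 (0.07) and G0S2 (0.07) were among these. Of the adipokines LEP (0.32) and ADIPOQ (0.15) did not pass either. In triacylglycerol synthesis 0 of 15 genes, in lipolysis and the lipid droplet 0 of 18, in fatty acid uptake and binding 0 of 15, in fatty acid oxidation 0 of 20 and among the thermogenic genes 0 of 13 passed. At an unadjusted p under 0.05 these limma fits gave 4, 4, 5, 1 and 0 genes in the same order, or 26.7%, 22.2%, 33.3%, 5% and 0% of the lists against 17.8% of all genes.

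**Figure D2:**
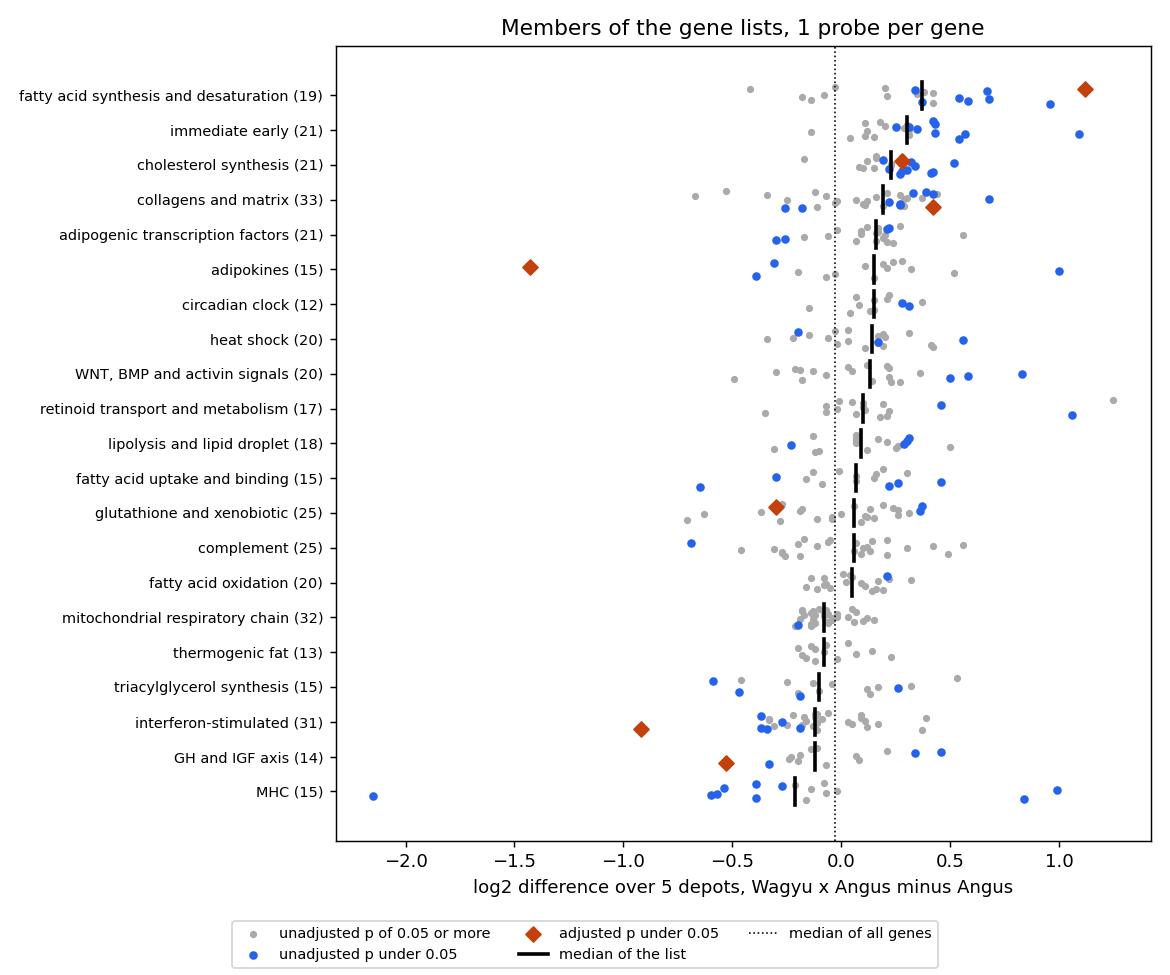
Each row is a gene list with the number of its genes on the array, and each point is the log2 difference of 1 gene over 5 depots. Black bars are list medians and the dotted line is the median of all genes, -0.03. Among the lists shown, which leave out the cell type markers, fatty acid synthesis and desaturation has the highest median, 0.37, and MHC the lowest, -0.21.

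Both endogenous melanocortin antagonists were lower in Wagyu x Angus fat. ASIP (gene ID 404192) encodes the agouti signalling protein, which blocks the melanocortin 1 receptor of pigment cells and is also made in fat of cattle, and AGRP (gene ID 280987) encodes the agouti-related peptide, best known from the hypothalamus, where it drives feeding. ASIP levels in Inter were -0.25, 0.53, 0.60 and 0.76 in Angus and -0.95, -0.67, -0.53 and -0.28 in Wagyu x Angus. In Kid they were -0.40, 0.16, 0.30 and 0.34 against -6.07, -0.86, -0.85 and -0.60. The breeds did not overlap in either depot, and 1 Wagyu x Angus array lay far below the other three in Kid.

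The same was seen for ASIP in SC, with -0.11, 0.05, 0.20 and 0.36 in Angus and -4.78, -1.16, -0.58 and -0.32 in Wagyu x Angus, and in Omen, with 0.18, 0.20, 0.62 and 0.95 against -5.93, -0.95, -0.47 and -0.11. IMF was the exception, with -1.45, -0.79, -0.39 and 0.55 in Angus and -1.82, -0.86, -0.71 and -0.58 in Wagyu x Angus. ASIP therefore did not overlap in 4 of 5 depots, as did 0.0205% of all probes in 4 or more. The difference of ASIP over 5 depots was -1.57 (SE 0.37, 2.98-fold lower, adjusted p = 0.0211), and its single probe was well above background on 20 Angus and 20 Wagyu x Angus arrays. The medians of these arrays were 0.20 in Angus and -0.78 in Wagyu x Angus. With all depots together 4 Wagyu x Angus arrays were below every Angus fat array and 16 within the Angus range. From the 40 arrays of these breeds alone the adjusted p was 0.0615.

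AGRP levels in Inter were -2.75, -1.74, -1.69 and -1.50 in Angus and -3.44, -3.18, -3.05 and -2.75 in Wagyu x Angus, and in Kid -2.61, -2.04, -1.94 and -1.80 against -4.26, -2.99, -2.92 and -2.90. In SC they were -2.17, -2.07, -1.74 and -1.65 against -5.78, -2.60, -2.52 and -2.45, and in Omen -2.02, -2.00, -1.56 and -1.41 against -4.75, -2.96, -2.54 and -2.27. As for ASIP, the breeds were apart in these 4 depots and overlapped in IMF, where Angus ranged from -3.26 to -1.82 and Wagyu x Angus from -3.37 to -2.56. The difference over 5 depots was -1.13 (SE 0.21, 2.19-fold lower, adjusted p = 0.00213), and the second AGRP probe gave -1.07 (adjusted p = 0.065). With all depots together 5 Wagyu x Angus arrays were below every Angus fat array and 15 within the Angus range.

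The lowest Wagyu x Angus array was the same for ASIP and AGRP in IMF, SC, Kid and Omen, but not in Inter. In SC that array read -4.78 for ASIP and -5.78 for AGRP, in Kid -6.07 and -4.26, and in Omen -5.93 and -4.75. Hereford minus Angus was -0.23 for ASIP (adjusted p = 0.906) and -0.18 for AGRP (adjusted p = 0.849). With the slide as a block the differences were -1.40 (adjusted p = 0.184) and -1.0 (adjusted p = 0.0842), so that neither passed.

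CD1B (gene ID 509004) encodes an antigen-presenting molecule that shows lipids to T cells and is typical of dendritic cells. Cattle carry several CD1B copies, so the probe may read more than 1 of them. CD1B levels in Omen were 0.01, 0.17, 1.43 and 1.62 in Angus and -4.85, -4.25, -2.07 and -1.27 in Wagyu x Angus, without overlap. In Inter they were 0.45, 1.13, 1.15 and 2.76 against -6.57, -6.05, -4.49 and 2.05, and in SC 0.78, 0.85, 1.92 and 2.06 against -4.42, -4.23, 0.92 and 1.02.

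Part of the Wagyu x Angus arrays lay within the Angus range and part up to several log2 units below it. CD1B levels in IMF were -1.83, -1.75, -1.69 and -0.36 in Angus and -6.54, -5.90, -5.84 and -0.75 in Wagyu x Angus, and in Kid 0.60, 0.78, 1.26 and 3.28 against -5.30, -4.91, -0.60 and 1.45. Altogether 13 of 20 Wagyu x Angus arrays were below every Angus fat array and 7 within the Angus range. The difference was -3.86 (SE 0.60, 14.5-fold lower, adjusted p = 0.000131), the largest of any named gene. The 4 CD1B probes gave -3.86 to -1.08 and 2 of them passed.

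PI3 (gene ID 783871), the elastase inhibitor elafin of epithelia and inflamed tissue, belongs to a family of like copies in cattle, and its probes may read more than PI3. PI3 levels in IMF were -2.85, -2.37, -2.04 and -1.79 in Angus and -5.41, -5.15 and -3.99 in Wagyu x Angus, and in Omen -4.20, -3.20 and -1.48 against -6.44, -5.66, -5.65 and -5.56, the missing arrays being those with many outlier spots. In Inter they were -3.42, -3.16, -2.63 and -2.20 against -7.93, -4.71, -4.33 and -3.94. The breeds did not overlap in these 3 depots, and they did in SC and Kid. The difference was -2.30 (SE 0.39, adjusted p = 0.00059) over 19 arrays of each breed, and all 4 probes passed. The scanner's mark for well above background, which outlier spots also carry, was set on 20 of 20 Angus and 16 of 20 Wagyu x Angus arrays, so that the size rests in part on dim values. PI3 was lower in Hereford as well, with a Hereford minus Angus difference of -1.73 (adjusted p = 0.0177).

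IGFLR1 (gene ID 617594), a receptor of the tumour necrosis factor receptor family found on T cells, was on 2 levels. In SC the Angus arrays read -3.72, -3.63, -3.61 and -2.91 and the Wagyu x Angus arrays -3.22, -0.08, 0.17 and 0.20. In Kid they read -3.55, -3.52, -3.26 and -2.49 against -3.70, -0.39, -0.34 and -0.01, and in Omen -3.64, -3.43, -3.24 and -3.21 against -3.62, -3.49, -0.17 and 0.05. In each of these depots some Wagyu x Angus arrays lay near 0 and the rest within the range of the Angus fat arrays of all depots.

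In IMF the IGFLR1 arrays read -3.98, -3.52, -3.02 and -3.0 in Angus and -3.71, -3.30, -0.53 and -0.42 in Wagyu x Angus, and in Inter -3.29, -3.23, -2.60 and -2.57 against -3.67, -3.17, 0.04 and 0.41. Of the 20 Wagyu x Angus fat arrays 12 were above every Angus fat array, where all Angus values lay between -3.98 and -2.49, and 8 were within. The difference was 1.82 (SE 0.33, 3.54-fold higher, adjusted p = 0.00141). In LD muscle 5 of 12 Wagyu x Angus arrays and 6 of 12 Hereford arrays were above every Angus LD array. The IGFLR1 difference in LD did not pass in limma, at 0.89 with diet as a covariate (adjusted p = 0.0877) and 0.71 with scan day added (adjusted p = 0.607). The Hereford minus Angus difference in fat was -0.18 (adjusted p = 0.922). IGFLR1 read 1.81 with the slide as a block (adjusted p = 0.0592).

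TNFRSF6B, a soluble decoy receptor for Fas ligand, was higher by 0.82 (SE 0.17, adjusted p = 0.00669) by both of its probes, and GBP4, an interferon-induced guanylate binding protein, was lower by -0.92 (SE 0.21, adjusted p = 0.014). GBP4 was the 1 of 31 interferon-stimulated genes that passed (all genes, 1.32%). The list had 6 genes lower and 0 higher at an unadjusted p under 0.05 (19.4%, near the 17.8% of all genes) and a median of -0.12, from 0.15 in IMF to -0.41 in Kid. In the MHC list 0 of 15 genes passed in the limma fit, while 7 were lower and 2 higher at an unadjusted p under 0.05 (60%, against 17.8% of all genes), with a median of -0.21. BOLA-DQA5 read -2.15 (adjusted p = 0.121), BOLA-DQB -0.60 (adjusted p = 0.0556) and BOLA-NC1 0.99 (adjusted p = 0.148). Cattle MHC genes are highly polymorphic and alike, so these probes are uncertain as to the gene and allele they read.

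**Figure D3:**
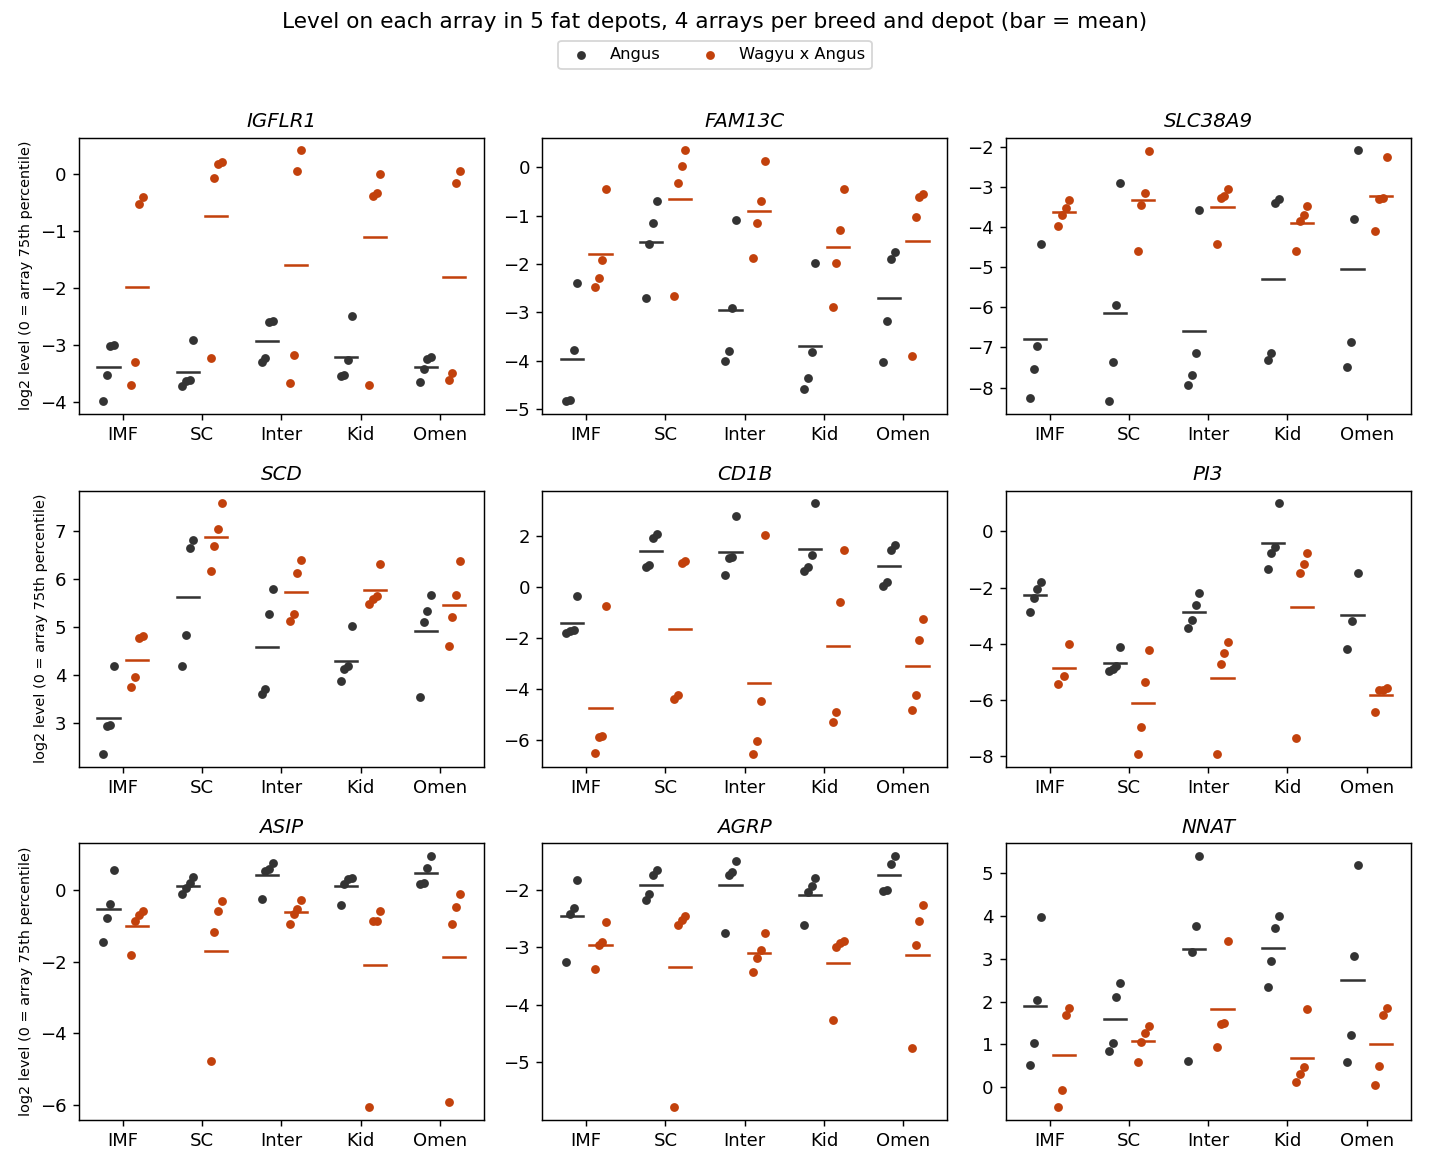
Points are the log2 levels of 9 genes on each of 4 arrays per breed and depot, and bars are group means; 0 is the 75th percentile of the array. ASIP and AGRP of the breeds do not overlap in 4 depots, while 12 Wagyu x Angus arrays of IGFLR1 lie above and 13 of CD1B lie below every Angus array and the rest within the Angus range.

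NNAT (gene ID 353114), the imprinted gene of neuronatin, a small membrane protein of the endoplasmic reticulum that is also made by adipocytes, was lower. NNAT levels in Kid were 2.35, 2.94, 3.72 and 4.00 in Angus and 0.12, 0.30, 0.46 and 1.83 in Wagyu x Angus, without overlap. In the other depots the breeds overlapped, with Inter at 0.62, 3.16, 3.76 and 5.40 against 0.93, 1.49, 1.49 and 3.41. The difference of NNAT over 5 depots was -1.43 (SE 0.34, 2.69-fold lower, adjusted p = 0.0211), and the 3 probes gave -1.43, -1.38 and -1.35. NNAT was the 1 of 15 listed adipokines that passed (all genes, 1.32%), and at an unadjusted p under 0.05 the list had 1 gene higher and 3 lower (26.7%, against 17.8% of all genes). DLK1, a preadipocyte factor and likewise imprinted, read -0.65 (SE 0.19, adjusted p = 0.0962), with all 5 of its probes below 0. With the slide as a block NNAT read -1.16 (adjusted p = 0.229), and from the 40 arrays alone its adjusted p was 0.0556.

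In the list of the growth hormone and IGF axis 1 of 14 genes passed (all genes, 1.32%), and 2 were higher and 2 lower at an unadjusted p under 0.05 (28.6%, against 17.8% of all genes). IGF1R, the receptor of IGF1, was lower by -0.53 (SE 0.13, adjusted p = 0.0232), but read -0.45 with the slide as a block (adjusted p = 0.184) and -0.26 with normexp (adjusted p = 0.318), while IGF1 itself read -0.33 (adjusted p = 0.297) and IGF2 -0.20 (adjusted p = 0.465).

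A probe of SLC38A9 (gene ID 534045) was higher. The gene encodes a lysosomal amino acid transporter that senses arginine for the mTORC1 growth pathway. SLC38A9 levels in IMF were -8.27, -7.53, -6.97 and -4.42 in Angus and -3.98, -3.70, -3.52 and -3.34 in Wagyu x Angus, and in Inter -7.95, -7.69, -7.13 and -3.58 against -4.42, -3.29, -3.22 and -3.05. In Kid they were -7.32, -7.13, -3.40 and -3.32 against -4.59, -3.85, -3.71 and -3.47. The Wagyu x Angus arrays lay between -4.59 and -2.10 in all depots and the Angus arrays between -8.34 and -2.09, with overlap everywhere but in IMF.

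This SLC38A9 probe was well above background on 8 of 20 Angus and on 20 of 20 Wagyu x Angus arrays, and it met the filter on dim probes through Wagyu x Angus alone. The fitted difference, 2.46 (SE 0.50, adjusted p = 0.00585), therefore rests in part on Angus values that were not well above background and gives no measured size, and the other 2 SLC38A9 probes, which were above background on every array, gave -0.13 and 0.02. With the slide as a block it read 2.22 (adjusted p = 0.0969). FAM13C was similar in that 1 of 5 probes passed, with 1.66 (SE 0.35, 3.17-fold higher, adjusted p = 0.00895), and the others gave 0.07 to 0.22. Both results therefore belong to a probe and not to all probes of the gene.

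RASSF7 (gene ID 538490), of the Ras association domain family, was lower by -2.04 (SE 0.50, 4.11-fold, adjusted p = 0.028) by both probes. RASSF7 levels in Omen were 1.33, 1.46, 1.53 and 2.66 in Angus and -2.50, -2.50, -2.10 and 1.69 in Wagyu x Angus, and in IMF 2.22, 2.45, 2.56 and 2.88 against -2.19, -1.55, 2.38 and 3.31. As for CD1B, part of the Wagyu x Angus arrays lay in the Angus range: 6 of 20 were below every Angus fat array, 13 within and 1 above. The call was lost without Wagyu x Angus IMF array 1 and without Wagyu x Angus Kid array 2, and with the slide as a block the value was -2.63 (adjusted p = 0.0644).

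Further increases were found for RGS7, a brake on G protein signals (0.97, SE 0.19, adjusted p = 0.00484, both probes), NMRAL1, an NADPH sensor (0.96, adjusted p = 0.00342), MTURN (0.88, adjusted p = 0.00925, 4 of 4 probes), PTGR1, which inactivates prostaglandins and leukotriene B4 (0.87, adjusted p = 0.00585, 3 of 3 probes), RUNDC3B (0.90, adjusted p = 0.0214) and BAIAP2L1, an adaptor of the actin skeleton (0.90, adjusted p = 0.0409). MCM10, a DNA replication factor, was higher by 1.08 (SE 0.29, adjusted p = 0.0461). Its Hereford minus Angus difference was 1.15 (adjusted p = 0.0362). With the slide as a block RGS7 read 1.05 (adjusted p = 0.0506), NMRAL1 0.97 (adjusted p = 0.0509), PTGR1 0.90 (adjusted p = 0.083) and MTURN 0.79 (adjusted p = 0.14). NMRAL1 moved the other way in Hereford, at -0.74 against the same Angus arrays (adjusted p = 0.0377). The RUNDC3B probe was well above background on 12 Angus and 19 Wagyu x Angus arrays, so that its size rests in part on dim values. Of the brighter RUNDC3B probes 1 gave 0.70 (adjusted p = 0.0269) and 1 gave -0.13.

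Further decreases were found for CDCA8, of the mitotic chromosomal passenger complex (-1.12, adjusted p = 0.0461), HBB, beta globin (-1.01, adjusted p = 0.0436), TKTL2, a transketolase-like gene (-0.96, adjusted p = 0.0157), TXNRD1, the cytosolic thioredoxin reductase (-0.95, adjusted p = 0.0329) and PCDHB11, of the protocadherin beta cluster (-0.83, adjusted p = 0.0482). The second probes of CDCA8 and TXNRD1 gave 0.02 and 0.01. Hereford minus Angus in the same limma fit was -0.85 for HBB (adjusted p = 0.14) and -0.83 for TKTL2 (adjusted p = 0.059). Wagyu x Angus minus Hereford was -0.16 and -0.14 for these genes. HBB and PCDHB11 have near-identical neighbours, and their probes are uncertain as to the copy. The calls of CDCA8, HBB, TXNRD1, PCDHB11, BAIAP2L1 and MCM10 lay close to the threshold and were lost without some single arrays.

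**Figure D4:**
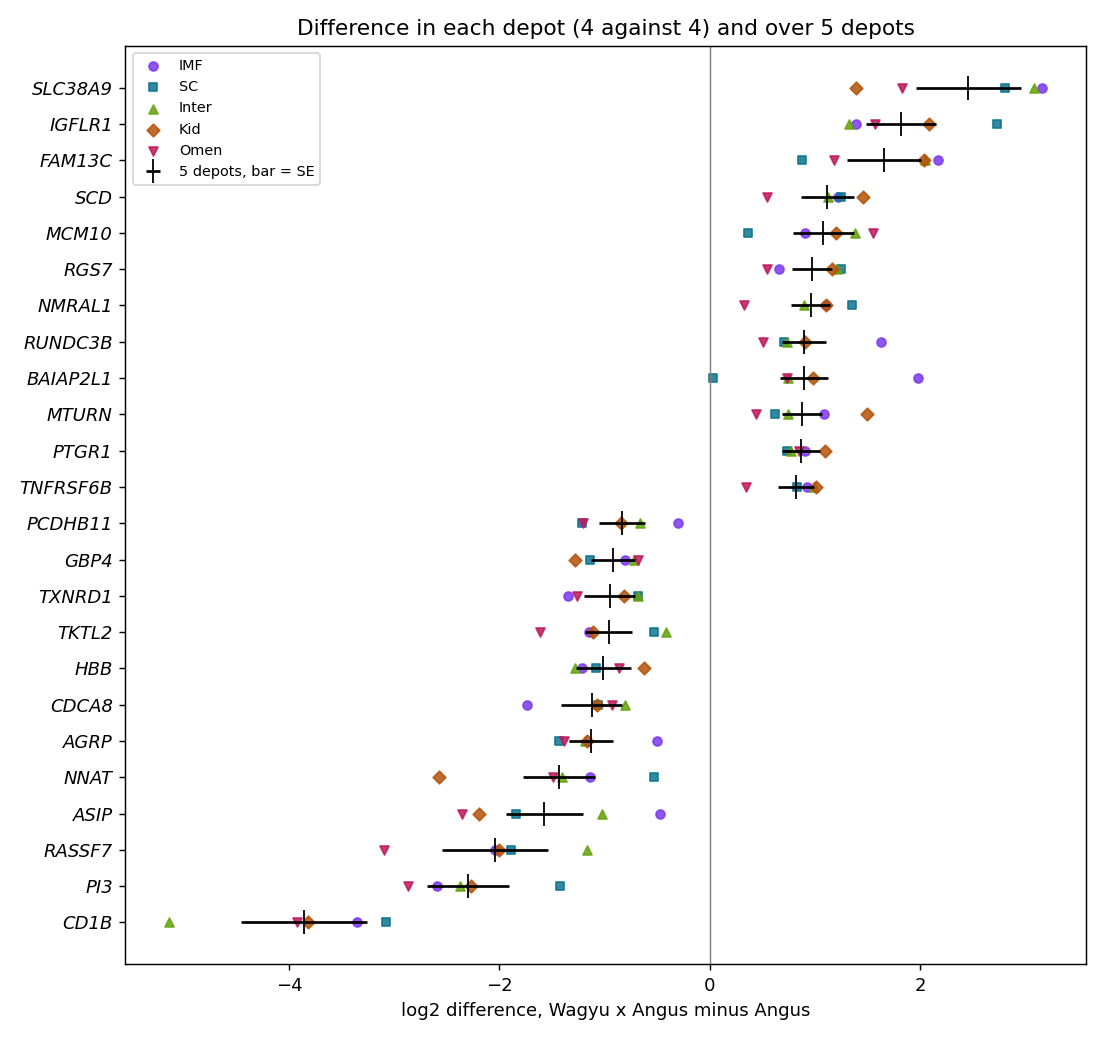
Coloured symbols are the log2 differences of the 24 genes with the largest changes in each depot, 4 arrays against 4, and the black marks are the differences over 5 depots with their SE. A gene could enter only with the same sign in all 5 depots, so the agreement of sign is part of the choice; ASIP ranges from -0.47 in IMF to -2.35 in Omen and CD1B from -3.08 in SC to -5.14 in Inter.

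Small differences could be very regular. CEBPG (gene ID 617530), a C/EBP transcription factor of the stress response, was chosen after its values were seen, because it did not overlap in any of the 5 depots, which held for 2 of all probes (0.00584%). CEBPG levels in IMF were 1.48, 1.48, 1.5 and 1.52 in Angus and 1.09, 1.25, 1.30 and 1.30 in Wagyu x Angus, and in Kid 1.78, 1.88, 1.90 and 2.27 against 1.34, 1.41, 1.52 and 1.59. Of the 20 Wagyu x Angus arrays 17 were below every Angus fat array. The difference was -0.34 (SE 0.05, 1.27-fold lower, adjusted p = 0.000114), but the other 2 CEBPG probes gave 0.04 and 0.02.

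The other such probe has no gene name here and the smallest p of all, with a difference of -0.88 (SE 0.07, adjusted p = 2.08e-12). A_73_107275 read 0.11 to 0.38 in SC of Angus and -1.07 to -0.69 in SC of Wagyu x Angus, -0.63 to -0.24 against -1.47 to -0.97 in Kid, and -0.57 to -0.12 against -1.80 to -1.08 in Omen. In IMF it read -1.02 to -0.77 against -1.86 to -1.28 and in Inter -0.89 to -0.07 against -1.59 to -1.14.

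Further genes were chosen after their values were seen, for a small p or their place next to another gene. CCDC61, a centriole protein, was higher by 0.48 (SE 0.07, adjusted p = 4.73e-05) and did not overlap in 3 depots, as did 0.0906% of all probes in 3 or more and 0.733% in 2 or more. MSRB2, a mitochondrial methionine sulfoxide reductase, was higher by 0.58 (SE 0.09, adjusted p = 0.000319) and did not overlap in 4. MSRB2 levels in SC were 1.06, 1.43, 1.67 and 1.74 in Angus and 1.93, 1.94, 1.94 and 2.03 in Wagyu x Angus, and in LD muscle 11 of 12 Wagyu x Angus arrays were above every Angus LD array. TBC1D22A was lower by -0.60 (SE 0.09, adjusted p = 0.000148).

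CAST encodes calpastatin, the inhibitor of the calpain proteases that soften meat, and ERAP1, the next gene in the RefSeq gene order, encodes a peptidase that trims peptides for MHC class I. Of its 10 probes 1 was lower by -0.58 (SE 0.09, adjusted p = 0.000319), without overlap in 3 depots, whereas of the other 9 probes none passed and 7 were at or above 0. ERAP1 was lower by -0.39 (SE 0.08, adjusted p = 0.0066), with all 4 probes between -0.39 and -0.21. ERAP1 read -0.29 (adjusted p = 0.163) and CAST -0.48 (adjusted p = 0.0494) with the slide as a block.

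Among the other lists, collagens and matrix had 1 of 33 genes past the test (all genes, 1.32%). It was COL18A1, the chain from which endostatin is cut, at 0.42 (SE 0.09, adjusted p = 0.0126). At an unadjusted p under 0.05, 8 of the 33 were higher and 2 lower (30.3%, against 17.8% of all genes), and the list median was 0.19. COL18A1 was higher in Hereford too, by 0.36 (adjusted p = 0.0459). The glutathione and xenobiotic list had 1 of 25 (all genes, 1.32%), with 12% at an unadjusted p under 0.05 against 17.8% of all genes. The gene was MGST2, a microsomal glutathione transferase, at -0.30 (SE 0.07, adjusted p = 0.0246). Neither passed with the slide as a block, where COL18A1 read 0.46 (adjusted p = 0.0599) and MGST2 -0.22 (adjusted p = 0.372).

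Of the 21 immediate early genes, which respond to many stimuli within minutes, 0 passed in the limma fit, 20 were above 0 (all genes, 4666 of 10653) and 9 were higher at an unadjusted p under 0.05 (42.9%, against 17.8% of all genes). Their median was 0.30 over 5 depots, 0.67 in Omen, 0.40 in SC, 0.24 in IMF, -0.01 in Inter and -0.02 in Kid. FOSB read 1.09 (adjusted p = 0.173) and FOS 0.57 (adjusted p = 0.161). None of the 21 adipogenic transcription factors, 17 retinoid genes, 20 WNT, BMP and activin genes, 25 complement genes, 12 clock genes, 20 heat shock genes or 32 respiratory chain genes passed, and at an unadjusted p under 0.05 limma gave 4, 2, 3, 1, 2, 3 and 1 of them, or 3.12% to 19% of a list against 17.8% of all genes. In the table as deposited, where the median of all genes was -0.17, the medians of the WNT, clock, complement, heat shock and retinoid lists fell below 0.

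Markers of cell types, 13 lists in 5 depots, were without overlap between the breeds in 2 of 65 cases (3.08%), a share within the range of 1.72% to 4.07% of all probes in a depot. Adipocyte markers, summed on the linear scale, overlapped between the breeds in all 5 depots, for example 409 to 687 in Angus and 535 to 800 in Wagyu x Angus in IMF. Smooth muscle markers were 349 to 615 in Angus and 201 to 316 in Wagyu x Angus IMF, without overlap. Schwann cell markers were 15.1 to 23.5 in Angus and 27.7 to 34.8 in Wagyu x Angus Kid, without overlap, and 13.5 to 73.1 against 27.5 to 100 in IMF.

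S100B, a Schwann cell and adipocyte gene, was the 1 of 9 Schwann cell markers that passed, higher by 0.81 (SE 0.21, adjusted p = 0.0393), and all 9 were above 0 (all genes, 1.32% passed and 43.8% were above 0). S100B read 0.69 with the slide as a block (adjusted p = 0.306). HBB was the 1 of 8 markers of neutrophils and blood that passed. Skeletal myofibre markers were 1780 to 3760 in Angus IMF and 1280 to 4010 in Wagyu x Angus IMF. In Inter the Wagyu x Angus arrays read 5.4, 13.4, 99.1 and 1030, against 5.5 to 12.5 in Angus. Without the 2 highest of these arrays 214 probes passed over the 5 depots. The part of these cell types in the results was not tested.

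**Figure D5:**
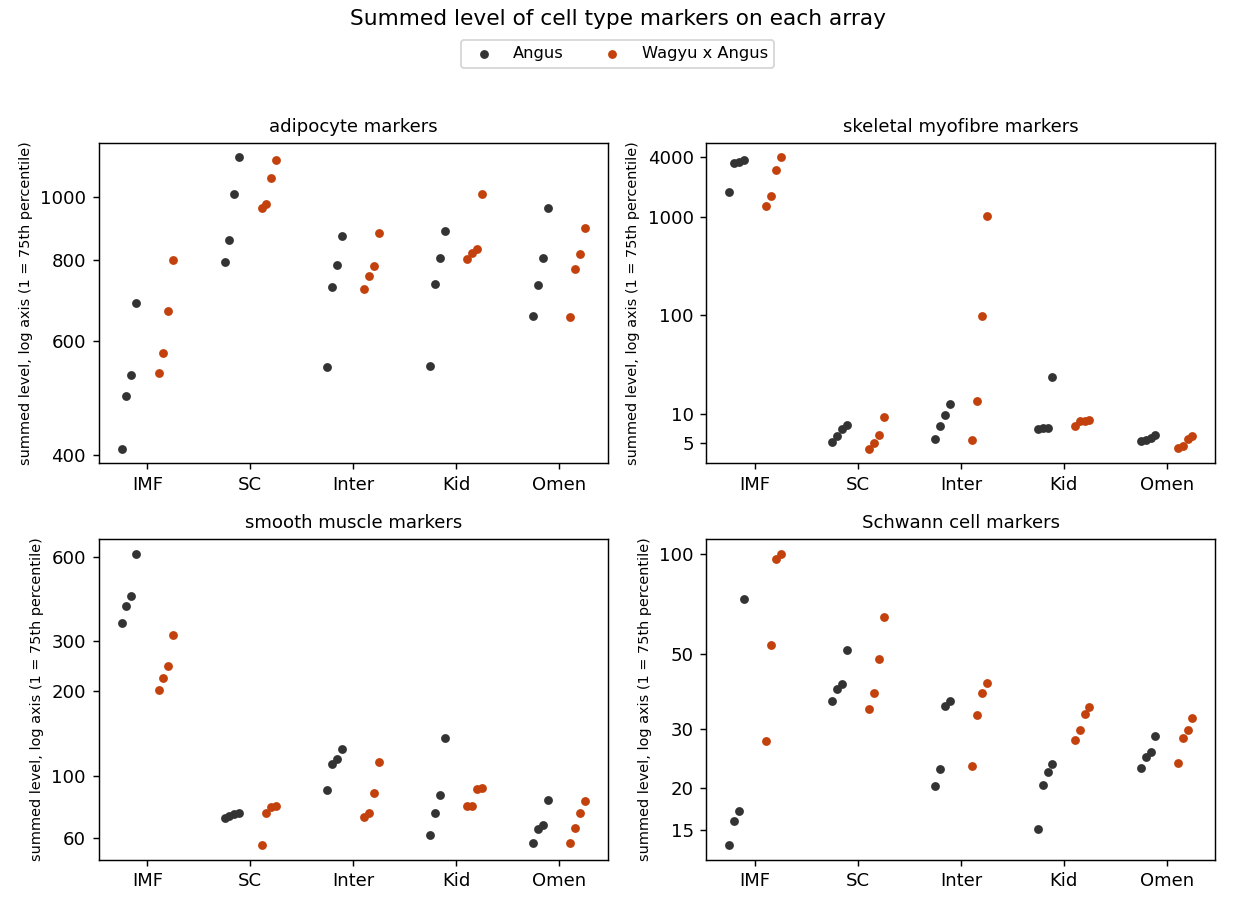
Points are the summed linear levels of the markers of 4 cell types on each array, on a log axis, where 1 is the 75th percentile of the array. Adipocyte markers overlap between the breeds in every depot, smooth muscle markers are apart in IMF and Schwann cell markers in Kid, and 3 of 4 Wagyu x Angus Inter arrays, at 13.4, 99.1 and 1030, lie above the highest Angus Inter array for myofibre markers, at 12.5.

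Within single depots, with 4 arrays against 4 and each array another steer, limma called 0 probes in IMF, SC, Inter, Kid and Omen (0% each). At an unadjusted p under 0.05 there were 1954 probes in IMF (5.71%), 1454 in SC (4.25%), 1415 in Inter (4.13%), 2265 in Kid (6.62%) and 1155 in Omen (3.37%). The breeds did not overlap for 2.47%, 2.37%, 1.72%, 4.07% and 2.19% of probes in the same order. The calls named above therefore rest on the 5 depots together.

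Whether the breed difference varied between depots was tested by interaction terms over the 60 arrays. It passed for 0 probes (0%), with 976 at an unadjusted p under 0.05 (2.85%). The 5 named genes with the smallest p for this, all at an adjusted p of 1, were RRAD (1.28 in Omen, -0.98 in IMF), CYSLTR2 (2.19 in Omen, -0.74 in Kid), KCNK1 (0.96 in Omen, -0.44 in IMF), ESRP1 (0.90 in Kid, -2.44 in SC) and DHRS7C (3.86 in Inter, -0.74 in IMF). DHRS7C, a gene of striated muscle, was well above background on 6 Angus and 10 Wagyu x Angus fat arrays, and in Inter on 0 of 4 Angus and 3 of 4 Wagyu x Angus arrays, so that the size of its Inter difference and its place among the 5 are not measured. Its highest Inter value, -1.99, was on the Wagyu x Angus array with a summed skeletal myofibre level of 1030; the part of muscle in this was not tested. CH25H, cholesterol 25-hydroxylase, differed by 1.85 (SE 0.49) in Omen and by -0.34 to 0.24 in the other depots, with an adjusted p of 1 for the dependence on depot. Other genes chosen by name, TDH (0.85), UCP1 (-0.14), HOXA10 (0.19), ALDH1A1 (0.18) and BCO2 (0.21), did not pass over 5 depots.

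Hereford minus Angus over the same 5 depots, which shares the Angus arrays, called 216 probes (0.631%). Among the 24 genes with the largest changes, PI3, MCM10 and NMRAL1 passed there. In LD muscle 6553 probes passed between 12 Wagyu x Angus and 12 Angus arrays with diet as a covariate (19.1%), but 190 with the scan day in the model (0.555%), and the breeds of the 8 supplement arrays, with 5859 probes past the test (17.1%), cannot be told apart from slide and scan day. By the methods, LD was also taken from the carcasses that gave the fat, so the LD values are not independent of those in fat. ASIP read -1.50 (adjusted p = 0.0162) and SCD 0.11 (adjusted p = 0.727) in LD with diet as a covariate, and with scan day in the model ASIP no longer passed (-1.69, adjusted p = 0.178).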

How the data were processed

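RNA of 96 samples had been labelled with 1 dye and hybridised to bovine Agilent arrays. The scanner files deposited by the authors (Agilent Feature Extraction 10.7.3.1) give a background-subtracted intensity per spot, and their value table, tested against those files, holds log2 of the median signal minus background, without scaling between arrays. The mixed-model normalization of the study was not repeated. Here each array's 75th percentile was subtracted from the log2 processed signals, without control spots and outlier spots, with spots of a probe averaged, for the 34227 probes of the authors' table.

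Differences were fitted with limma 3.58.1 in R 4.3.3 over the 60 fat arrays with depot as covariate, and in each depot on 8 arrays alone, with Benjamini-Hochberg adjustment over all probes and a threshold of 0.05. The script was tested on simulated data with independent arrays, which cannot check the effect of steers shared between depots. Names came from RefSeq accessions or the tables of the study for 62.6% of the probes, and 1 probe, that with the smallest p, stood for a gene. The text names the 12 largest increases and 12 largest decreases past the threshold that had the same sign in 5 depots and were well above background on at least 10 arrays of the brighter breed, the 5 genes with the smallest p for dependence on depot, members of the gene lists that passed, and 27 genes by name. No depot gave a named gene of its own. The members and lists were chosen with earlier results of these data known.

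Alternatives were other normalizations, background correction, starting values, probes and filters, slide, scan day and replicate number as blocks, each scan day alone, leaving out arrays or depots, and the methods' equal-variance test per probe. Precision is limited by the number of steers, which the 20 arrays of a breed exceed, and p-values measure the spread between arrays. Replicate numbers equalled the position on the slide on all 96 arrays.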

Additional observations from a re-analysis of the deposited data

Results flagged for a closer look

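Of 237 groups of 4 measured arrays (the 24 genes with the largest changes, by depot and breed, in Angus and Wagyu x Angus), 26 held 1 array far from the other three, where chance gives about 1 in 20. The level of that array is given, with the median of the others in brackets.

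IGFLR1 read -2.91 (-3.63) in Angus SC, -3.22 (0.17) in Wagyu x Angus SC and -3.70 (-0.34) in Wagyu x Angus Kid. CD1B read -0.36 (-1.75) in Angus IMF and -0.75 (-5.90) in Wagyu x Angus IMF. RASSF7 read -2.14 (1.66) in Angus Inter, 2.66 (1.46) in Angus Omen and 1.69 (-2.50) in Wagyu x Angus Omen. PI3 read -7.34 (-1.15) in Wagyu x Angus Kid and -6.44 (-5.65) in Wagyu x Angus Omen.

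ASIP read -6.07 (-0.85) in Wagyu x Angus Kid and -5.93 (-0.47) in Wagyu x Angus Omen, and AGRP -5.78 (-2.52) in Wagyu x Angus SC and -4.26 (-2.92) in Wagyu x Angus Kid. FAM13C read -3.90 (-0.62) in Wagyu x Angus Omen, MCM10 -4.66 (-2.80) in Angus Inter, and RGS7 -1.39 (-0.73) in Wagyu x Angus Inter and -3.96 (-2.57) in Angus Kid. TNFRSF6B read -1.12 (-1.95) in Angus IMF and -0.25 (-0.99) in Wagyu x Angus IMF.

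PTGR1 read 0.92 (-0.20) in Angus SC, RUNDC3B -7.68 (-6.69) in Angus Inter and CDCA8 -5.08 (-3.01) in Angus IMF. HBB read -6.33 (-4.09) and TXNRD1 -1.69 (-3.79) in Wagyu x Angus Omen, and PCDHB11 -5.58 (-5.07) in Wagyu x Angus IMF.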

How the results depend on the processing

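The count over 5 depots, 282, lay within 1.5 times of this under quantile normalization (269), the authors' table minus its 75th percentile (208), all non-control probes (279), the filter on dim probes (282), scan day as a block (297), the 40 arrays alone (313), robust eBayes (280), and, chosen after seeing the data, without the 2 arrays with many outlier spots (302) or the 2 Inter arrays with most myofibre transcript (214). It was 174 with arrays centred on their means, 164 with normexp, 91 in the table as deposited and 52 with the slide as a block. It was 120 without IMF, 75 without SC, 40 without Inter, 104 without Kid, 127 without Omen, 0, 0 and 5 within the scan days, and 6 without IMF and Inter, chosen after seeing the data; these fits hold fewer arrays. Leaving out single arrays gave 212 to 389. Of the 35 genes named for passing over 5 depots 8 passed with the slide as a block, 12 to 20 without a depot, and none reversed.

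Replicate numbers do not pair the samples: arrays of the same number had a median correlation of 0.00811 in their deviations, of other numbers -0.00539 and of the same slide 0.0638. The replicate block gave 281 probes, of which 228 were shared, and ASIP, CDCA8, HBB, TXNRD1 and PCDHB11 no longer passed.

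Within depots limma and the methods' test called 0 probes, the latter with 1650 in IMF, 1366 in SC, 1151 in Inter, 2222 in Kid and 1170 in Omen at an unadjusted p under 0.05, except that the spread from 60 arrays gave 1 in SC and 3 in Omen, and leaving out single arrays gave 0 to 4 in IMF, 0 to 1 in SC and 0 to 1 in Inter. Dependence on depot passed for 1 probe with normexp and 3 among all probes. In LD 17588 probes passed in the table as deposited and 190 with scan day; on supplement 18193 with normexp, 20930 as deposited and 3641 to 6011 without single arrays. The cause was not tested. Among the genes named for passing, other probes turned the sign for CDCA8 (0.02), TXNRD1 (0.01), CAST (0.14, 0.06, 0.17, 0.14, 0.12, 0.00 and 0.02), CEBPG (0.04 and 0.02), RUNDC3B (-0.13) and SLC38A9 (-0.13). Among those that did not pass, they did so for LIPE (-0.01), LPL (-0.13), CD36 (-0.02 and -0.01), RRAD (0.06) and CYSLTR2 (-0.01). For IGF2 3 of 10 probes had the sign given. Calls were lost without single arrays for PCDHB11 (30 of 40 arrays), MCM10 (28), CDCA8 (27), HBB (24), BAIAP2L1 (18), S100B (17), TXNRD1 (12), MVK (8) and RASSF7 (2).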

Other observations

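Probes without a gene name showed large differences. A_73_P052711 had a fitted difference of -2.74 (SE 0.38, adjusted p = 2.28e-05), whose size is not measured, since the probe was well above background on 19 Angus but only 7 Wagyu x Angus arrays. A_73_P052576 had a fitted difference of 2.59 (SE 0.66, adjusted p = 0.0376). It was well above background on 12 Angus and 17 Wagyu x Angus arrays, so that the size rests in part on dim values. A_73_P149896 was higher by 1.85 (SE 0.32, adjusted p = 0.000561). A_73_P088216 was lower by -1.49 (SE 0.31, adjusted p = 0.00741). These adjusted p-values are those of limma's fit over the 60 fat arrays.

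Over the 5 depots skeletal myofibre markers had a median difference of 0.62, with 15 of 16 above 0, smooth muscle markers -0.38, with 8 of 10 below 0, and pancreas markers -0.17, with 7 of 7 below 0, beside -0.03 and 5987 of 10653 below 0 over all genes. None of these genes passed in limma, with 2, 3 and 0 at an unadjusted p under 0.05 (12.5%, 30% and 0%, against 17.8% of all genes). The median summed myofibre level was higher in Wagyu x Angus than in Angus in Inter (56.2 against 8.58) and Kid (8.46 against 7.17). It was lower in IMF (2300 against 3540), SC (5.59 against 6.5) and Omen (5.16 against 5.58). The medians were 0 for endothelium, 0.12 for mesothelium, 0.07 for fibroblast progenitors and -0.03 for the adrenal cortex. Adipocyte markers had a median of 0.17, with 9 of 10 above 0, Schwann cell markers 0.41, and markers of neutrophils and blood -0.22. Macrophages had a median difference of -0.20, B and plasma cells -0.19 and T and NK cells -0.14, and none of their genes passed in limma, with 0, 0 and 2 at an unadjusted p under 0.05 (14.3% of the T and NK list, against 17.8% of all genes).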
